A study of Mus musculus with 6 samples.

Results

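Purine nucleotides and the nucleoside adenosine act as signals outside cells. Stressed or dying cells release ATP and NAD, which surface enzymes break down step by step, and the intermediates and the final adenosine are read by separate families of receptors. The data concern 10 genes of this system in activated ILC2s (aILC2s): the ectoenzyme genes Entpd1, Nt5e and Cd38, the adenosine-clearing enzyme genes Ada and Adk, the adenosine receptor genes Adora2a and Adora2b, the ATP-gated channel genes P2rx4 and P2rx7, and P2ry10, which is named after the nucleotide receptors. The 10 genes were chosen with earlier results of these data known. They were then found by gene symbol, with no threshold on their values. All 10 were among the 15212 genes listed and among the 13166 tested. ILC2s are tissue lymphocytes without antigen receptors that secrete type 2 cytokines once the alarmin IL-33 reaches them, and ATP released into the airways is known to promote the release of IL-33 from epithelium.

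Bulk RNA-Seq was made from 3 WT and 3 Vsir-/- libraries of ILC2s sorted from lungs. Both groups were on a BALB/c background, and all mice were 5 to 8 weeks old and had received 0.5 µg of rmIL-33 intranasally on 3 days, with isolation on day 4, so there is no group without IL-33. Vsir encodes VISTA, an inhibitory receptor. The Vsir-/- mice lack it in all cells and carry an allele made in a B6N.129S5 strain, so a difference can come from ILC2s or from their surroundings, and chromosome segments near Vsir can be of the donor strain. The cells were gated as lineage-negative, ST2+ and CD127+, and each library was amplified from 10 pg of RNA; the labels speak both of fresh and of cultured cells. It is not stated whether the libraries came from separate mice, and p-values therefore measure the spread between these libraries, which may be technical.

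The libraries held 15680892 to 29197999 counts. Vsir itself had 109, 185 and 126 counts in the WT libraries and 0, 2 and 0 in the Vsir-/- libraries, so the labels and the targeted transcript matched (6.86 ± 0.465 against 0.0405 ± 0.0702 CPM, the counts of a gene scaled to the size of its library; SD, n = 3; two-sided exact permutation p = 0.1, the smallest that 3 against 3 allow). All 10 ILC2 markers examined were present, among them the transcripts of the gate, Il1rl1 (ST2) with 574 ± 49.1 CPM for WT against 571 ± 30.4 for Vsir-/-, and Il7r (CD127) with 89.8 ± 7.46 against 174 ± 8.47. Of the 10, Il5, Areg, Il2ra and Il7r were higher in Vsir-/- libraries, whereas Gata3 (log2 fold change -0.80), Rora (-0.76), Klrg1 (-0.98) and Thy1 (-1.88) were lower, all called by edgeR. Markers of other cell types also moved with genotype. The summed level of the 5 T cell markers listed in the files, of 8 examined, was 163 to 197 CPM in WT and 74.0 to 91.9 CPM in Vsir-/- libraries, with Trbc2, Cd3g and Trbc1 the main contributors and Trac at 0 to 3 counts per WT library and 0 or 1 per Vsir-/- library. That of 7 of 11 macrophage, monocyte and dendritic cell markers was 819 to 1096 against 183 to 229 CPM, nearly all of it Ccr2, without which the sums were 6.64 to 13.5 and 5.91 to 7.48 CPM. The 5 of 6 epithelial markers summed to 21.9 to 22.2 against 4.82 to 5.601 CPM, mostly Epcam. Of the 2 mast cell and basophil markers listed, Cpa3 was lower and Mcpt8 higher, with sums of 1.69 to 2.74 against 2.95 to 5.73 CPM, and Pecam1, of endothelium and some leukocytes, was higher (35.6 to 41.1 against 48.3 to 53.8 CPM). The sums of B cell and plasma cell markers overlapped between genotypes (11.1 to 17.4 and 13.3 to 15.03 CPM), and so did those of NK cell markers (2.18 to 3.26 and 1.82 to 3.30 CPM) and of neutrophil and eosinophil markers (7.28 to 8.77 and 8.42 to 9.02 CPM). T cells, B cells and myeloid cells can express several of the 10 genes, and the part of such cells in the results was not tested. In bulk RNA, fewer cells of a type and less RNA per cell cannot be told apart.

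Of the 10 genes, 8 passed the test for a difference: 3 were higher in Vsir-/- aILC2s and 5 were lower (edgeR quasi-likelihood test, Benjamini-Hochberg adjusted p under 0.05 over all tested genes). Over all 13166 tested genes 38.9% passed this threshold, 18.9% higher and 20.1% lower. The WT and Vsir-/- libraries did not overlap in 9 of the 10 genes, which held for 49.4% of all tested genes. The median size of the log2 difference was 0.70 for the 10 genes and 0.32 for all tested genes, without regard to sign. The 3 ectoenzyme genes and Ada were lower, while Adk, Adora2a and P2rx4 were higher. These counts describe 10 genes chosen with earlier results of these data known, so they cannot show an excess over other genes. The 10 genes were not tested as a group.

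**Figure D1:**
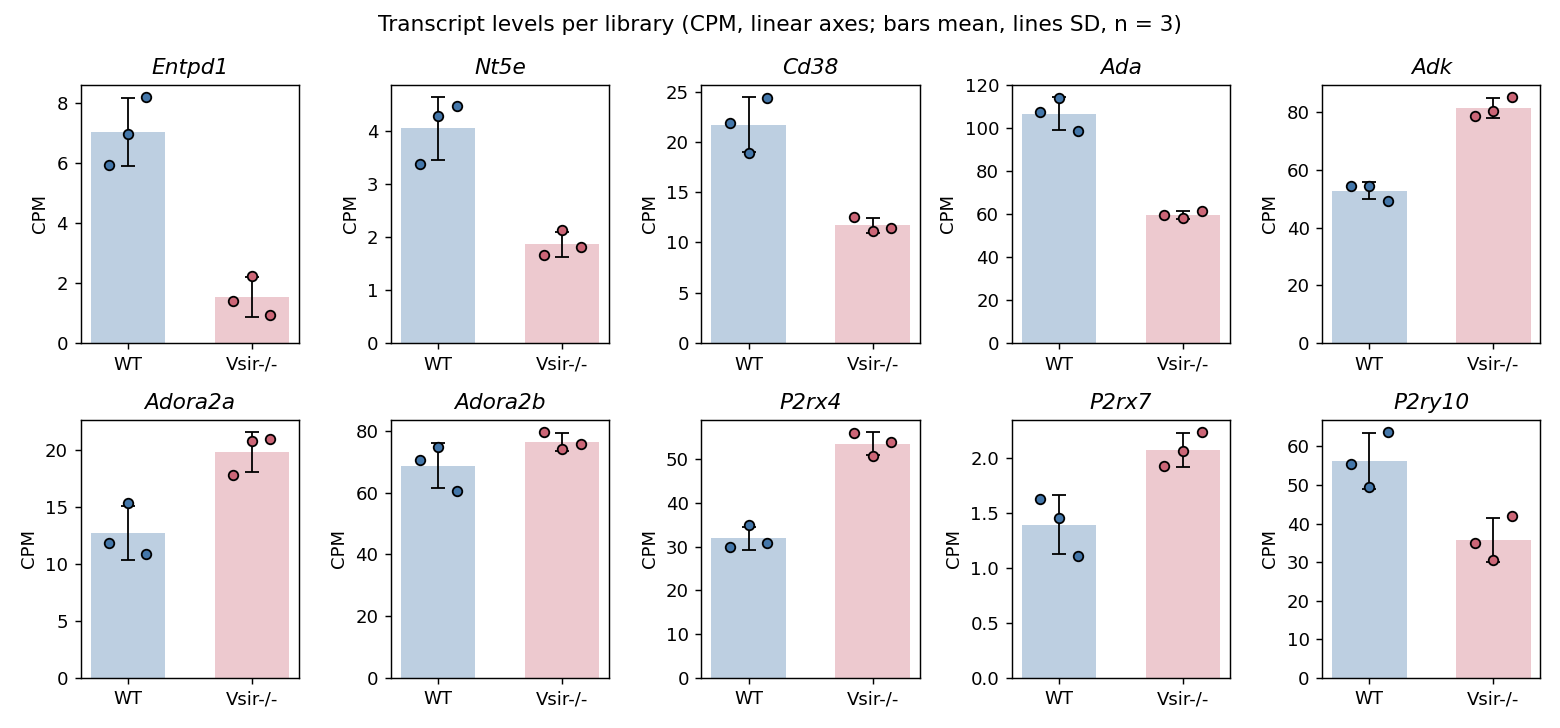
Transcript level of each of the 10 genes in each library, in CPM on linear axes that start at 0 and differ between panels; points are libraries, bars the mean and lines the SD (n = 3 per genotype). WT and Vsir-/- points overlap in the Adora2b panel alone; in the Entpd1 panel the WT points lie between 5.95 and 8.21 CPM and the Vsir-/- points between 0.934 and 2.25 CPM.

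**Figure D2:**
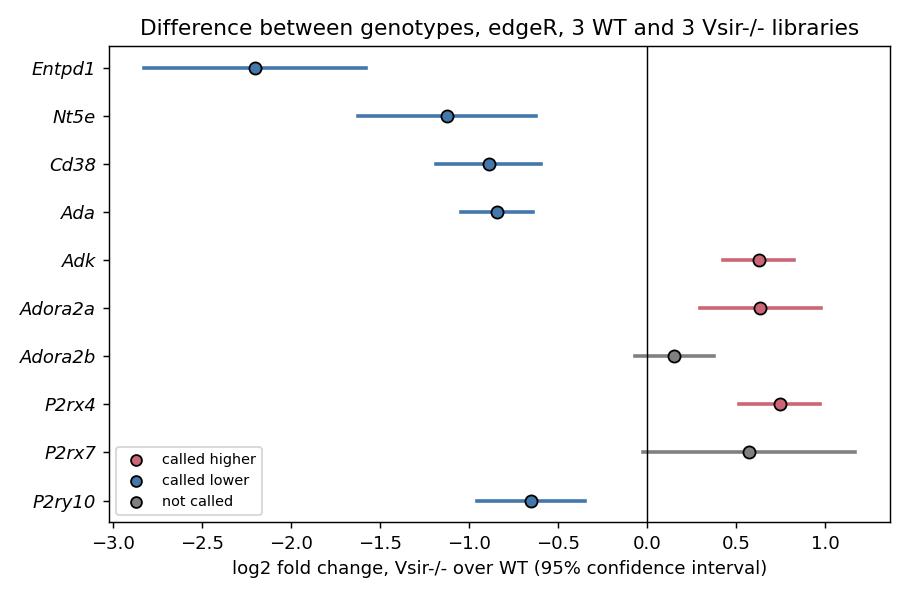
Log2 fold change of Vsir-/- over WT for each gene (points) with its 95% confidence interval from edgeR (lines), coloured by call. The intervals of Adora2b (-0.07 to 0.38) and P2rx7 (-0.02 to 1.17) include 0, and the interval farthest from 0 is that of Entpd1 (-2.82 to -1.58).

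The start regions of the genes differed in kind, and 1 window for each of the 5 genes that fell is shown because these genes moved the same way. A RefSeq window from 250 bases before to 50 bases after the start (GRCm38.p6) was matched for 9 of the 10 genes, all but Adora2a, with 13 windows in total. Entpd1 and P2ry10 have 2 windows each, of which the more upstream is shown. Lower case letters are plain sequence and capitals mark a match to 1 of the motifs searched.
Entpd1, chr19:40612116-40612415, plus strand: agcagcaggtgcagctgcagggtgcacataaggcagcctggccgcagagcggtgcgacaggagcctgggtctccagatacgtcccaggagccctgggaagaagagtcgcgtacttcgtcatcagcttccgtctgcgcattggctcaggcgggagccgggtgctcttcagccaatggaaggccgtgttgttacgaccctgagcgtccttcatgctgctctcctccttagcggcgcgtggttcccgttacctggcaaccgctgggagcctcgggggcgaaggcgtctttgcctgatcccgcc
Nt5e, chr9:88327359-88327658, plus strand: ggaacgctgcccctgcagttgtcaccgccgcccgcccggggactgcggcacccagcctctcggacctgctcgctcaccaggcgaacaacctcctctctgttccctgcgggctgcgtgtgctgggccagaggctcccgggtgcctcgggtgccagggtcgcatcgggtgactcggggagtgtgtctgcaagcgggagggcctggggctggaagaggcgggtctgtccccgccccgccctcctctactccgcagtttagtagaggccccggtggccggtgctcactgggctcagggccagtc
Cd38, chr5:43868559-43868858, plus strand: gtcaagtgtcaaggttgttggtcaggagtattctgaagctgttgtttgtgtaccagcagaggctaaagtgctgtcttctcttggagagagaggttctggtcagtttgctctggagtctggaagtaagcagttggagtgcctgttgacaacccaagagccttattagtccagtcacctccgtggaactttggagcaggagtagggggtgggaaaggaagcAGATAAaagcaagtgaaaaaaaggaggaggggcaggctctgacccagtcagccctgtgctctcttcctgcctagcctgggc
Ada, chr2:163750190-163750489, minus strand: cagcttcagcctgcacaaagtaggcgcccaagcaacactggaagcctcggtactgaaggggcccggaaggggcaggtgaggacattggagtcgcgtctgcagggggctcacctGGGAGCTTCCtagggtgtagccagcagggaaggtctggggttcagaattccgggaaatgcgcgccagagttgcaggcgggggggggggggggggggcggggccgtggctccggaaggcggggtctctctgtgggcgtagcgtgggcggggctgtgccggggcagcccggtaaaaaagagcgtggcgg
P2ry10, chrX:107088242-107088541, plus strand: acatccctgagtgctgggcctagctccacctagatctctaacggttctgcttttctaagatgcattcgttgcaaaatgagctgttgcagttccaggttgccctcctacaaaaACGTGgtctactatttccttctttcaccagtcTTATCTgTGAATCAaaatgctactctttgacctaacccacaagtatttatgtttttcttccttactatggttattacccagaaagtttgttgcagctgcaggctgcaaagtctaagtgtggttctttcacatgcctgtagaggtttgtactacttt
The windows shown for Entpd1, Nt5e and Ada are rich in G and C (64.0%, 71.0% and 68.0%) and hold 23, 23 and 20 CpG pairs, whereas those of Cd38 and P2ry10 hold 1 and 3 (51.7% and 42.3% G and C). The second Entpd1 window has 48.7% G and C with 10 CpG pairs and the second P2ry10 window 39.3% with 5. Over 32851 windows of the same length the medians were 52.7% and 7 CpG pairs. Motifs were searched on both strands, and no 2 matches in the windows shown overlap. The FOXO letters GTAAACA and the cyclic AMP response element TGACGTCA were in 0 of the 13 windows, and in 3.65% and 1.79% of all windows. The GATA letters AGATAA were in 3 of 13 windows (11.2% of all), those of Cd38, P2ry10 and the second P2rx7 start, and in the P2ry10 window they stand on the other strand and read TTATCT. The AP-1 letters TGANTCA were in 2 of 13, those of P2ry10 and the first P2rx7 start (7.81% of all), the hypoxia response element letters ACGTG in 1, that of P2ry10 (19.6% of all), and the NF-κB motif, by its name, in 1, that of Ada (8.46% of all). A match is a run of letters and was not tied to any of the differences below.

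The surface enzymes were examined first, since they set how much nucleotide is turned into adenosine. Entpd1 encodes CD39, which removes phosphates from ATP and ADP to give AMP. It lies on chromosome 19 of GRCm38 from 40612366 to 40741602 (plus strand, 17 merged exons, 5580 exonic bases). WT replicates 1, 2 and 3 held 5.95, 7.00 and 8.21 CPM of it, and the Vsir-/- replicates 1.41, 2.25 and 0.934 CPM. Each WT library thus lay above each Vsir-/- library, and among Vsir-/- libraries replicate 2 was the highest. The log2 fold change of Vsir-/- over WT (log2FC) was -2.20 (standard error 0.28, edgeR adjusted p = 0.000159), and 2.08% of all tested genes had a larger difference in either direction. The call rests on 22, 37 and 15 counts in the Vsir-/- libraries. Without Vsir-/- replicate 2 the log2FC was -2.57 and without Vsir-/- replicate 3 it was -1.92, and the call was kept in each case.

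Nt5e encodes CD73, the enzyme that turns AMP into adenosine, and so the next step after CD39. Located on chromosome 9 from 88327197 to 88372092 (plus strand, 9 merged exons, 8602 exonic bases), it was a rare transcript in these cells. In WT libraries it stood at 3.38, 4.29 and 4.48 CPM (54, 124 and 77 counts) and in Vsir-/- libraries at 1.67, 2.13 and 1.80 CPM (26, 35 and 29 counts). The groups did not overlap, and the lowest WT library was replicate 1. Nt5e fell by 1.12 on the log2 scale (standard error 0.23, edgeR adjusted p = 0.00276). When WT replicate 1 alone was set against the Vsir-/- libraries, as the only WT library whose label does not end in S0, the log2FC was -0.85 and the call was lost (edgeR adjusted p = 0.161).

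Cd38 encodes an ectoenzyme that splits NAD, with cyclic ADP-ribose and ADP-ribose among its products, and in other lymphocytes it feeds a route to adenosine that does not pass through ATP. It occupies chromosome 5 from 43868553 to 43912375 (plus strand, 8 merged exons, 3890 exonic bases). Its level was 21.9, 18.9 and 24.4 CPM in WT and 12.5, 11.1 and 11.5 CPM in Vsir-/- replicates 1 to 3. The Vsir-/- libraries were close together and all below the lowest WT library. Cd38 fell by 0.89 on the log2 scale (standard error 0.13, edgeR adjusted p = 0.000468). Bst1, a relative of Cd38 that lies 24.6 kb before it and also splits NAD, had 0.846 ± 0.455 CPM in WT against 1.31 ± 0.216 CPM in Vsir-/- (log2FC 0.56, edgeR adjusted p = 0.310).

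The fall of Entpd1 exceeded those of Nt5e and Cd38 in ratios of counts, which are given as a description. Within each library the counts of Entpd1 divided by those of Nt5e gave 1.76, 1.63 and 1.83 in WT and 0.846, 1.06 and 0.517 in Vsir-/-, and the ranges did not overlap. The ratio of Cd38 to Entpd1 was 3.67, 2.71 and 2.97 in WT and 8.86, 4.95 and 12.3 in Vsir-/- libraries. Such a ratio needs no scaling between libraries, but 2 transcripts of one library share its RNA and amplification.

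Among the other listed enzymes that act outside cells, Enpp2, which encodes autotaxin, the enzyme that makes lysophosphatidic acid, rose from 0.858 ± 0.392 to 4.10 ± 0.604 CPM (SD, n = 3; log2FC 2.23, edgeR adjusted p = 0.000379). Alpl, an alkaline phosphatase that can also release adenosine from AMP, rose from 0.556 ± 0.346 to 1.98 ± 0.515 CPM (log2FC 1.84, edgeR adjusted p = 0.00635). The call of Alpl rests on 4, 14 and 16 counts in WT and 31, 24 and 40 in Vsir-/- libraries. Of the 9 tested genes of 15 on this list, Entpd1, Nt5e and Cd38 included, 3 were higher and 4 lower. The median log2FC was -0.28, against -0.01 over all tested genes. Without those 3 genes, 3 of 6 were higher and 1 lower, with a median log2FC of 0.46. For this list and those below, the shares over all tested genes were 18.9% higher and 20.1% lower. The other calls were Enpp4, higher (0.35), and Acpp, a further AMP phosphatase, lower (-0.54), with libraries of both genotypes overlapping. The call of Enpp4 was lost without WT replicate 1 or 2 or Vsir-/- replicate 1 (adjusted p = 0.0933, 0.114 and 0.130 from edgeR). That of Acpp was lost without WT replicate 1 (edgeR adjusted p = 0.0773) or 3 (0.134), and likewise without replicate 2 (0.116) or 3 (0.135) of Vsir-/-.

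Adenosine is removed in 2 ways: adenosine deaminase, encoded by Ada, turns it into inosine, and adenosine kinase, encoded by Adk, returns it to AMP inside the cell. Transcripts of these enzymes moved in opposite directions. Ada, on chromosome 2 from 163726584 to 163750239 (minus strand, 12 merged exons, 2002 exonic bases), gave 108, 114 and 98.7 CPM for WT replicates 1 to 3 and 59.3, 57.9 and 61.4 CPM in the Vsir-/- replicates. The genotypes were far apart compared with the spread within each (107 ± 7.62 and 59.6 ± 1.76 CPM, SD, n = 3). Ada fell by 0.84 on the log2 scale (standard error 0.09, edgeR adjusted p = 5.15e-05), the smallest adjusted p among the 10 genes.

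Adk spans chromosome 14 from 21052574 to 21448569 (plus strand, 16 merged exons, 8526 exonic bases). The WT libraries held 54.5, 54.4 and 49.4 CPM and the Vsir-/- libraries 78.7, 80.5 and 85.2 CPM. No Vsir-/- library came near the WT range. Adk rose by 0.63 on the log2 scale, a 1.54-fold difference (standard error 0.09, edgeR adjusted p = 0.000357). The ratio of Ada to Adk counts went from 1.97, 2.09 and 2.00 in WT to 0.753, 0.719 and 0.721 in Vsir-/- libraries, so that Ada counts exceeded Adk counts in each WT library and fell short of them in each Vsir-/- library. These are ratios of counts, and per exonic base Ada stayed above Adk in both genotypes.

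**Figure D3:**
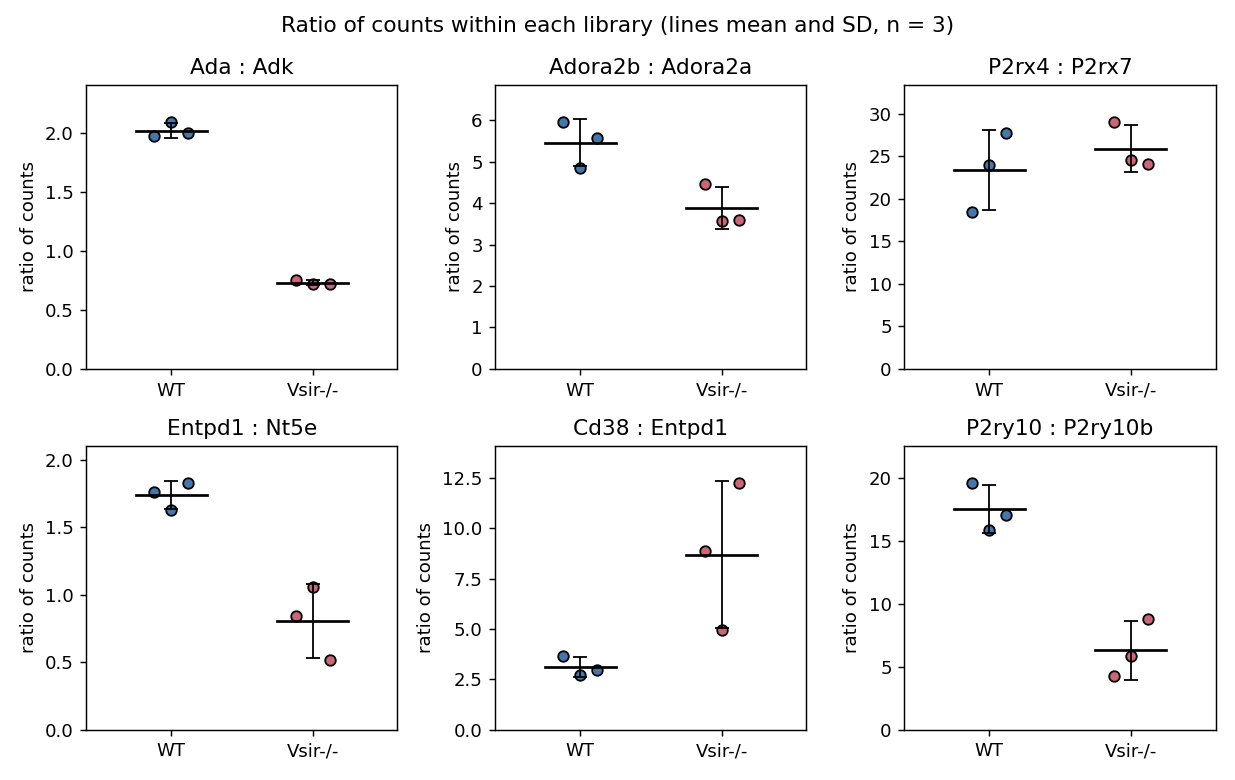
Ratio of the counts of 2 genes within each library, for 6 pairs, on axes that start at 0; points are libraries, and lines the mean and SD (n = 3 per genotype). The ratio of Ada to Adk was 2.02 ± 0.0645 in WT and 0.731 ± 0.0193 in Vsir-/-, while that of P2rx4 to P2rx7 overlapped between genotypes (23.4 ± 4.71 and 25.9 ± 2.73).

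Of 10 tested genes of adenosine uptake and breakdown, Ada and Adk included, 2 were higher, 2 were lower and the other 6 missed the threshold (median log2FC 0.07). Slc29a2, an equilibrative nucleoside transporter, rose from 1.33 ± 0.109 to 4.44 ± 0.847 CPM (SD, n = 3; log2FC 1.75, edgeR adjusted p = 0.000250). Slc28a2, which takes up purine nucleosides together with sodium, fell from 1.36 ± 0.236 to 0.479 ± 0.0397 CPM (log2FC -1.49, edgeR adjusted p = 0.00652), from 22 to 34 counts per WT library to 7 or 8. A further transporter, Slc29a1, had 124 ± 8.49 CPM in WT and 140 ± 16.1 CPM in Vsir-/- (log2FC 0.18, adjusted p = 0.185). Pnp, the phosphorylase that acts on inosine after Ada, was at 67.5 ± 4.20 and 76.1 ± 5.53 CPM (log2FC 0.17, edgeR adjusted p = 0.184).

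Both adenosine receptor genes among the 10 encode receptors that raise cyclic AMP. Adora2a encodes the receptor of high affinity that restrains T cells in many settings and lies on chromosome 10 from 75316877 to 75334784 (plus strand, 5 merged exons, 3062 exonic bases). WT replicates had 11.8, 15.4 and 10.9 CPM and Vsir-/- replicates 17.9, 20.8 and 21.0 CPM. WT replicate 2 was the highest of its group but still below the lowest Vsir-/- library. Adora2a rose by 0.64 on the log2 scale (standard error 0.15, edgeR adjusted p = 0.00759), with a range of 0.53 to 0.81 when single libraries were left out.

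Adora2a and Vsir share chromosome 10, with 14.9 Mb between them. Of the 55 other tested genes that start between them 25.5% were called, 9 higher and 5 lower, and of the 22 that start within 1 Mb of Adora2a 36.4% were called. The share was 41.9% on chromosome 10 as a whole and 39.1% over all tested genes with a position. The effect of a donor segment around the targeted allele and that of the loss of Vsir cannot be told apart for Adora2a.

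Adora2b encodes the receptor of lower affinity, which answers when adenosine is abundant. Its gene, on chromosome 11 from 62248984 to 62266453 (plus strand, 2 merged exons, 1845 exonic bases), gave 70.6, 74.8 and 60.6 CPM in WT and 79.7, 74.1 and 75.6 CPM in Vsir-/- libraries. The groups overlapped, with WT replicate 2 above Vsir-/- replicate 2. No difference was called (log2FC 0.15, edgeR adjusted p = 0.258), and the 95% interval ran from -0.07 to 0.38. Counts of Adora2b were 5.96, 4.86 and 5.57 times those of Adora2a in WT and 4.46, 3.56 and 3.61 times in Vsir-/- libraries. The ranges of this ratio did not overlap, although whether the fold changes of the receptors differ was not tested.

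P2rx4 and P2rx7 encode cation channels opened by extracellular ATP, which need little ATP in the case of P2rx4 and much in that of P2rx7, and they are neighbours on chromosome 5, 16.1 kb apart. For P2rx4, from 122707544 to 122729738 (plus strand, 11 merged exons, 7025 exonic bases), WT libraries held 30.0, 34.9 and 30.7 CPM and Vsir-/- libraries 56.0, 50.7 and 54.0 CPM. The groups were well apart. P2rx4 rose by 0.75 on the log2 scale, a 1.68-fold difference (standard error 0.10, edgeR adjusted p = 0.000259).

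P2rx7, from 122643911 to 122691432 (plus strand, 17 merged exons, 5970 exonic bases), can open a large pore and activate the NLRP3 inflammasome in macrophages. It was the scarcest of the 10 genes in WT, with 1.63, 1.45 and 1.11 CPM (26, 42 and 19 counts), against 1.93, 2.07 and 2.24 CPM (30, 34 and 36 counts) in Vsir-/-. The lowest Vsir-/- library was above the highest WT library, but the gap was small. The difference did not pass the test (log2FC 0.57 with a 95% interval of -0.02 to 1.17, edgeR adjusted p = 0.118), and at this depth an increase of the size seen for P2rx4 lay within the interval. The next tested gene beyond P2rx4, Camkk2, a kinase of the calcium pathway 1.43 kb away, fell by 0.57 on the log2 scale (39.9 ± 4.65 to 27.0 ± 1.41 CPM, edgeR adjusted p = 0.00303).

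Of 3 tested P2X genes of 7, P2rx1 was called as well, with 0.796 ± 0.318 CPM in WT against 2.05 ± 0.661 CPM in Vsir-/- (SD, n = 3; log2FC 1.34, edgeR adjusted p = 0.0187). Its call was lost without WT replicate 1 (adjusted p = 0.0654) or Vsir-/- replicate 2 (0.0721) or 3 (0.0576).

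P2ry10 is named for its likeness to nucleotide receptors, yet its known ligand is lysophosphatidylserine, a lipid shown by dying and activated cells. Placed on the X chromosome from 107088492 to 107104974 (plus strand, 4 merged exons, 2982 exonic bases), it had 55.3, 49.6 and 63.8 CPM in WT and 34.8, 30.6 and 41.8 CPM in Vsir-/- replicates 1 to 3. The highest Vsir-/- library stayed below the lowest WT library. P2ry10 fell by 0.65 on the log2 scale (standard error 0.14, edgeR adjusted p = 0.00356).

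Its paralogue P2ry10b, which starts 44.0 kb after its end, went the other way, from 3.22 ± 0.463 to 6.06 ± 1.89 CPM (SD, n = 3; log2FC 0.91, edgeR adjusted p = 0.0123). The counts of P2ry10 were 15.9 to 19.6 times those of P2ry10b in WT and 4.23 to 8.84 times in Vsir-/- libraries. Of all runs of 50 bases in P2ry10 transcripts 3.79% also occur in transcripts of P2ry10b, and the deposited values of both genes are not whole numbers. How reads that fit both genes were divided is not given in the sources used here, so the level of each is uncertain to that extent. With the counts of both genes added up, the log2FC was -0.51 (edgeR adjusted p = 0.00994). For the other 9 genes at most 1.63% of such runs were shared with another gene.

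Other receptors and enzymes of lysophosphatidylserine also differed. Gpr174, a further receptor of this lipid, rose from 1.25 ± 0.0789 to 3.13 ± 1.08 CPM (log2FC 1.32, edgeR adjusted p = 0.00554), and Abhd16a, which makes the lipid, fell from 84.6 ± 8.94 to 51.1 ± 4.23 CPM (log2FC -0.73, edgeR adjusted p = 0.000422). Abhd12, which breaks it down, was at 68.6 ± 7.17 and 61.9 ± 1.64 CPM (log2FC -0.15, edgeR adjusted p = 0.269). Of the 6 tested genes of this list, P2ry10 and P2ry10b included, 2 were higher and 2 lower.

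All 6 tested genes of the 10 P2Y receptor genes on the list, P2ry10 and P2ry10b included, passed the test, 3 higher and 3 lower, and the nucleotide receptors of this family changed in both directions. P2ry2, a receptor of ATP and UTP, went from 10.1, 9.73 and 9.67 CPM in WT to 52.0, 51.2 and 48.0 CPM in Vsir-/- libraries. P2ry1, a receptor of ADP, went from 80.6, 78.5 and 83.0 CPM to 21.0, 20.6 and 15.1 CPM. Each gene had its libraries close together within a genotype and far apart between genotypes. The log2FC values were 2.36 for P2ry2 (standard error 0.11, edgeR adjusted p = 1.79e-07) and -2.09 for P2ry1 (standard error 0.13, adjusted p = 1.14e-06). P2ry14, a receptor of UDP-glucose, fell from 25.5 ± 1.31 to 12.4 ± 0.890 CPM (log2FC -1.04). P2ry12, a further ADP receptor, had 3, 2 and 1 counts in WT and 21, 26 and 32 in Vsir-/- libraries.

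**Figure D4:**
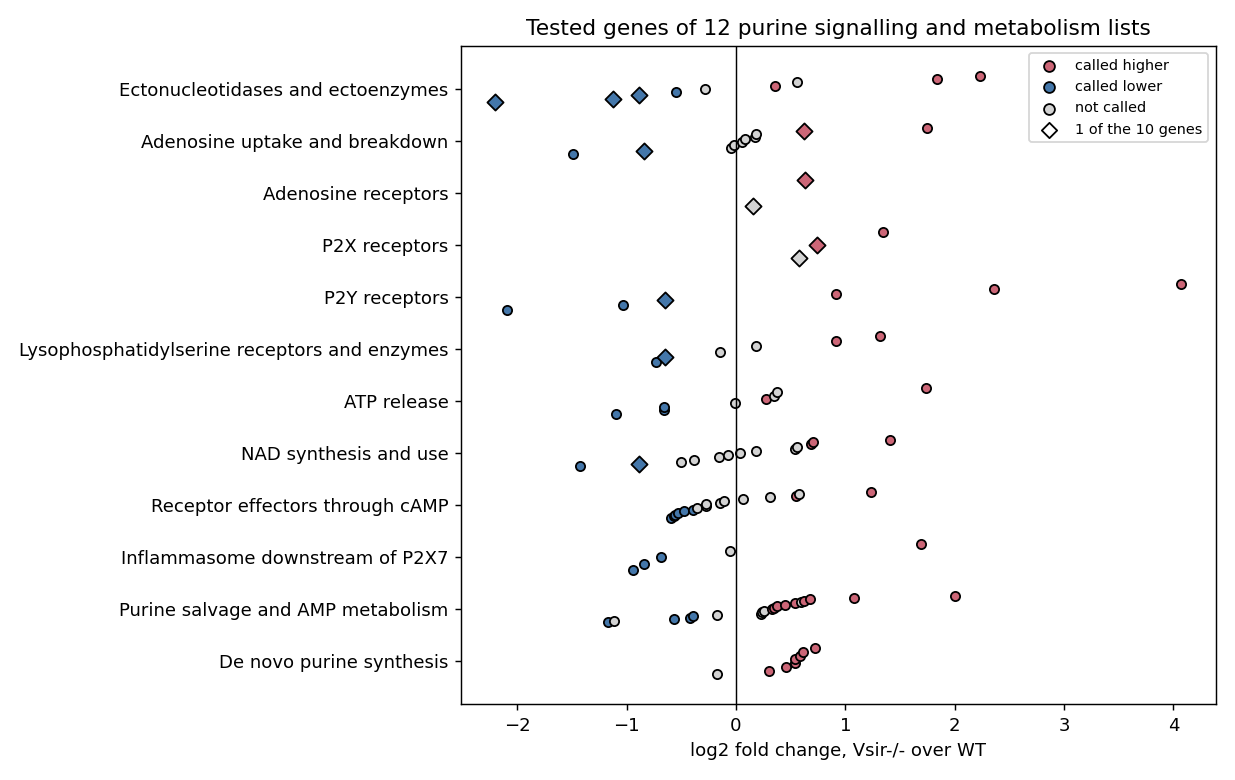
Log2 fold change of Vsir-/- over WT for every tested gene of 12 lists of purine signalling and metabolism, 1 line per list, coloured by call; diamonds are the 10 genes of the report. P2ry1 lies at -2.09 and P2ry2 at 2.36, and 7 of 8 de novo purine synthesis genes lie to the right of 0 and are called.

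Per exonic base the 10 transcripts covered a wide range of levels. Scaled to CPM per kilobase of exon (SD, n = 3), Ada was the highest in WT (53.3 ± 3.81), followed by Adora2b (37.2 ± 3.96), P2ry10 (18.9 ± 2.39) and Adk (6.19 ± 0.344). Cd38 (5.59 ± 0.701), P2rx4 (4.54 ± 0.380) and Adora2a (4.15 ± 0.779) came next, and from Adk to Adora2a each gene overlapped with the next one in its library values. Entpd1 (1.26 ± 0.203), Nt5e (0.471 ± 0.0685) and P2rx7 (0.234 ± 0.0445) were lowest, with no overlap between neighbours.

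The order differed in Vsir-/- aILC2s, where Adora2b (41.4 ± 1.56 CPM per kilobase) stood above Ada (29.7 ± 0.880) and P2ry10 (11.99 ± 1.90). Adk (9.56 ± 0.394), P2rx4 (7.62 ± 0.378), Adora2a (6.49 ± 0.571) and Cd38 (3.01 ± 0.189) then followed without overlap. At the low end P2rx7 (0.348 ± 0.0263), Entpd1 (0.275 ± 0.119) and Nt5e (0.217 ± 0.0273) overlapped, each with the next. The exon length is that of all annotated isoforms merged, so a gene with rarely used exons is set too low, and the isoforms in use were not measured.

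**Figure D5:**
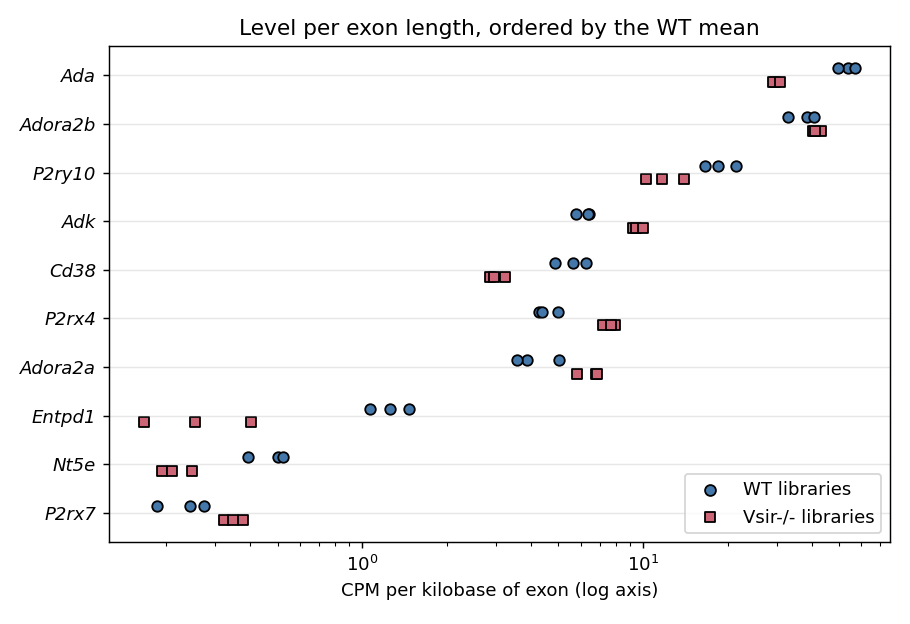
Level of each gene per exon length, in CPM per kilobase of exon on a log axis, ordered by the WT mean; circles are WT and squares Vsir-/- libraries. Ada lies at 49.3 to 56.9 in WT and at 28.9 to 30.7 in Vsir-/-, and the Entpd1 squares spread from 0.167 to 0.403.

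Release of ATP is the step before these enzymes and receptors. Of 8 tested release genes 2 were higher and 3 lower (median log2FC 0.13), with 1 to 3 higher when single libraries were left out. Gja1, the connexin 43 gene, rose from 8.29 ± 2.32 to 27.5 ± 2.55 CPM (log2FC 1.74, edgeR adjusted p = 4.48e-05). Panx1, the pannexin 1 channel gene, was the other higher gene (log2FC 0.27, edgeR adjusted p = 0.0486), and its call was lost without WT replicate 1 (0.175) or 3 (0.117) and without Vsir-/- replicate 1 (0.138) or 2 (0.106). Lrrc8c and Lrrc8b, subunits of volume-regulated channels, fell, the first from 221 ± 33.6 to 103 ± 12.7 CPM (log2FC -1.10) and the second with a log2FC of -0.66, and Calhm2 fell by 0.66 on the log2 scale.

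Genes of the synthesis and use of NAD, the substrate of CD38, were examined as a list. Of 13 tested genes 5 were called, 3 higher and 2, Cd38 among them, lower. Over all tested genes 38.9% were called. Nampt, the rate-limiting enzyme of NAD salvage from nicotinamide, rose from 57.1 ± 4.45 to 92.9 ± 12.6 CPM (log2FC 0.70, edgeR adjusted p = 0.000797), and Nmrk1, a nicotinamide riboside kinase, had a log2FC of 0.69. Naprt, which starts from nicotinic acid, fell from 23.0 ± 3.44 to 8.57 ± 0.937 CPM (log2FC -1.42, edgeR adjusted p = 4.87e-05). Trpm2, a calcium channel opened by ADP-ribose, rose from 2.31 ± 1.02 to 6.32 ± 1.16 CPM (log2FC 1.41).

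Downstream of the adenosine receptors, 16 genes of cyclic AMP signalling were tested, of which 2 were higher and 6 lower. Crem, a cyclic AMP-inducible transcription factor, went from 51.7, 50.6 and 51.1 CPM in WT to 117, 103 and 140 CPM in Vsir-/- libraries. Its log2FC was 1.23 (standard error 0.12, edgeR adjusted p = 2.07e-05). Pde4b, a phosphodiesterase that removes cyclic AMP, had a log2FC of 0.55 and was the other gene that rose. Among those that fell were Adcy7, an adenylyl cyclase of leukocytes (334 ± 16.2 to 225 ± 22.3 CPM, log2FC -0.57), and Gnai2, an inhibitory G protein subunit (log2FC -0.53). Gnas, a stimulatory G protein subunit, fell too (log2FC -0.39), as did Prkacb (-0.59), Creb1 (-0.55) and Pde7a (-0.48). The number of lower genes was 4 to 6 when single libraries were left out.

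Of 5 tested genes of the inflammasome that P2rx7 can activate in macrophages, Nlrp3 was higher, 3 were lower and Gsdmd was not called. Nlrp3, the sensor, rose from 16.5 ± 2.03 to 53.5 ± 9.94 CPM (log2FC 1.69, edgeR adjusted p = 1.56e-05). Its partner Nek7 (log2FC -0.84), the protease gene Casp1 (-0.94) and the adaptor gene Pycard (-0.69) fell.

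Inside the cell, purine nucleotides come from de novo synthesis and from salvage, and transcripts of both routes were examined in 2 lists. Of 8 genes of de novo synthesis 7 were higher, none was lower and Prps2 was not called, with a median log2FC of 0.54 (6 or 7 higher when single libraries were left out). Prps1, which makes the sugar phosphate the pathway starts from, rose from 99.7 ± 5.27 to 165 ± 10.2 CPM (log2FC 0.72, edgeR adjusted p = 0.000119), Ppat, the first committed enzyme, had a log2FC of 0.54 and Atic, the last, of 0.61. Of 19 tested genes of salvage and AMP metabolism 9 were higher and 4 lower (median 0.33). Ak4, an adenylate kinase of mitochondria, rose from 10.4 ± 2.22 to 41.6 ± 3.16 CPM (log2FC 2.00, edgeR adjusted p = 5.35e-06) and Impdh2, the entry to guanine nucleotides, had a log2FC of 0.67. Nt5c3, a cytosolic nucleotidase placed on this list, fell from 302 ± 19.8 to 134 ± 11.1 CPM (log2FC -1.17, edgeR adjusted p = 6.74e-06). Whether its product acts on purine nucleotides in these cells was not measured. Over the 12 lists together, each gene counted once, 90 genes other than the 10 were tested, of which 32 were higher and 22 lower. Over all tested genes 18.9% were higher and 20.1% lower. The lists were chosen with earlier results of these data known and were not tested as sets.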

How the data were processed

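Values are deposited estimated counts for each gene. The submitters' processing notes name Partek 10.0 and STAR 2.7.8 with mm10, while the annotation, the counting settings and any filter are not given in the sources used here. In each library 60.8% to 69.5% of values were whole (tolerance 0.01), and all were rounded for the tests. Software versions were 4.0.16 for edgeR, 1.42.0 for DESeq2, 3.58.1 for limma and 4.3.3 for R. Low genes were removed with filterByExpr (minimum count 10, minimum total 15), which left 13166, and CPM used TMM library sizes. edgeR's quasi-likelihood test compared 3 Vsir-/- with 3 WT libraries with no other term, and Benjamini-Hochberg adjustment ran over all tested genes. A standard error is the size of the log2 coefficient over the square root of its F value. The test code was tested on simulated data with all 6 libraries. There edgeR called 44% of the 1.5-fold and 92% of the 3-fold differences, and 15 of its 151 calls were false. Far fewer genes differed there than the 5124 called in the data, so these shares need not carry over. Positions and exon lengths come from GENCODE M21 (GRCm38).

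The 10 genes and the gene lists were chosen with earlier results of these data known. Named genes were the 10, Vsir, up to 4 others per list by smallest p, neighbours of called genes, and markers. Prps2, Gsdmd, Panx1, Prkacb, Gnas, Creb1, Pde7a and single markers beyond the most abundant of each list were named after their values were seen. Genes of the lists outside the deposited table were not analysed here. Alternatives were DESeq2, RLE factors, limma voom, other filters, a replicate block, thinning, summing, and leaving out libraries.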

Additional observations from a re-analysis of the deposited data

How the results depend on the processing

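Each of the 10 genes was tested under up to 16 alternatives, which gave 148 values: 147 kept their direction and their side of the threshold, 1 lost its call, and none was reversed. The lost call is that of Nt5e (log2 fold change -0.85) with libraries whose label suffix is S0 left out, an alternative added after the data were seen that leaves 1 WT library, which is assumed to vary like the others. The same alternative called 2480 genes in all, 1206 higher and 1274 lower, against 5124. Entpd1, Nt5e and P2rx7 have no value under the filter of a mean of at least 5 CPM, which removes them. DESeq2 called 5109 genes, and its counts for the 12 lists were within 1.5 times those of edgeR. With replicates 1 and 2 of each genotype, which share a label number, summed to leave 2 libraries per genotype, 3708 genes were called, and 8 of the 10 genes kept their calls.

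Replicate numbers are not stated to pair the libraries. The deviations of equally numbered libraries correlated at -0.0956, 0.197 and -0.475, and most libraries correlated best with another number. With a replicate block 4094 genes were called and no call among the 10 genes changed. The log2 fold changes without single libraries ranged from -2.57 to -1.92 for Entpd1, -1.23 to -1.05 for Nt5e, -0.98 to -0.80 for Cd38, -0.90 to -0.79 for Ada, 0.58 to 0.65 for Adk, 0.53 to 0.81 for Adora2a, 0.07 to 0.23 for Adora2b, 0.70 to 0.82 for P2rx4, 0.44 to 0.68 for P2rx7 and -0.76 to -0.54 for P2ry10, and called genes from 3922 to 4950. Depth limits Entpd1, Nt5e and P2rx7 most, whose lowest libraries held 15, 26 and 19 counts.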

Other observations

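Some genes beside the called members moved with them and others did not. Before, after and the end of a gene follow chromosome coordinates here, without regard to strand. Ap3m1 and Kat6b, the tested genes before and after Adk, had log2 fold changes of 0.14 and -0.03, and Tctn3, whose end lies 0.133 kb before Entpd1, of 0.12 (none of the 3 called by edgeR). Ccnj, a cyclin gene 89.7 kb after Entpd1, was higher (log2 fold change 0.60) where Entpd1 was lower. Beside Ada, Pkig, an inhibitor of protein kinase A whose gene ends 0.426 kb away, had a log2 fold change of -0.02 and was not called. Ywhab, a 14-3-3 gene 245 kb after Ada, was lower like Ada (log2 fold change -0.46, edgeR adjusted p = 0.00142). Cep162, the tested gene before Nt5e, was higher where Nt5e was lower (log2 fold change 0.55, edgeR adjusted p = 0.0300). Snx14, a sorting nexin gene 4.66 kb after Nt5e, fell together with it (51.2 ± 2.23 to 29.3 ± 3.47 CPM, SD, n = 3; log2 fold change -0.81, adjusted p = 0.000279 from edgeR). Gucd1, 16.3 kb after Adora2a, fell (log2 fold change -0.71), while Specc1l before it had a log2 fold change of 0.34 that was not called.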
